A study of Arabidopsis thaliana with 18 samples.

Results

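Wild-type Arabidopsis thaliana seedlings of the accession Col-0 were compared after 24 h at 27 °C and at 12 °C, with 2 arrays on each side, chosen by genotype and collection point from the 18 arrays of the series. All probe sets other than the array's own controls entered. Seeds had been kept in the dark at 4 °C for 48 h and germinated in light at 20 °C. Seedlings aged 5 d were then moved to 12 °C in continuous light for 3 d and, for the warm groups, on to 27 °C, and whole seedlings were collected. The cool group was collected at 0 h, just before the shift, with no group kept at 12 °C for a further 24 h, so warmth and the hours elapsed (with 1 more day of age) cannot be told apart. The other arrays are 2 of Col-0 after 2 h at 27 °C and 12 of the mutant arp6-10, with a mutation in ARP6, a subunit of SWR1, the complex that loads chromatin with the histone H2A.Z. Nothing in the labels says that the arrays of 1 group were grown separately, so the spread behind each p-value is that between these arrays only and may be technical.

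Plants moved from cool to warm conditions run through several well-known programmes. In the cold, CBF transcription factors switch on COR genes, whose products protect membranes and proteins, and cool, well-lit leaves make anthocyanins, the red pigments at the end of the flavonoid pathway. Warmth releases heat shock factors, which drive chaperones such as small heat shock proteins and the co-chaperones of HSP70 and HSP90, while moderate warmth also changes growth through auxin and the gibberellins. Chloroplast and ribosome genes are known to follow the supply of light energy and the demand for growth.

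Values are the deposited intensities as log2(intensity + 16) after quantile normalization, a scale that cannot go under 4 and understates the change of dim genes. A probe set was called when limma's adjusted p (Benjamini-Hochberg over the 15922 probe sets tested) was under 0.05. By this rule 2185 were higher and 1920 lower after 24 h, 4105 in all or 25.8% of those tested. The background shares, against which the lists below are to be read, were therefore 13.7% higher and 12.1% lower. More than 2-fold changes were found for 1210 of the higher and 777 of the lower probe sets, more than 4-fold for 175 and 90, and more than 8-fold for 16 and 9. The median absolute log2 change of the called probe sets was 0.98, against a median difference between the 2 replicates of 0.25 at 12 °C and 0.24 after 24 h. The total was 2522 when Col-0 12 °C replicate 1 was left out and 2021 when Col-0 24 h replicate 1 was. Without quantile normalization the median log2 change over all probe sets was 0.14 in place of -0.01, and the split became 3045 higher and 1614 lower.

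**Figure D1:**
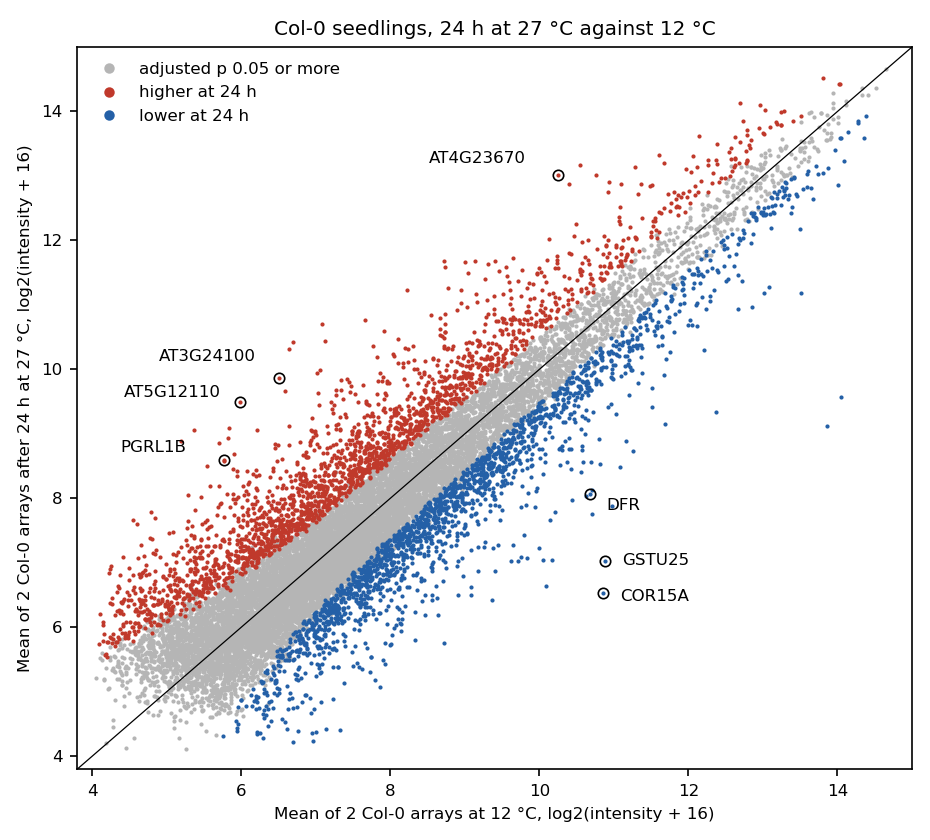
Mean of the 2 Col-0 arrays at 12 °C (x axis) and after 24 h at 27 °C (y axis) for the 15922 tested probe sets, both as log2(intensity + 16), with called probe sets in red (2185 higher) and blue (1920 lower) and the line of equal values in black. COR15A and GSTU25 lie far below the line and AT5G12110, AT3G24100 and PGRL1B far above it.

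The means of the deposited intensities, with 2% trimmed at each end, were 250.03 or 250.04 on all 18 arrays. The arrays labelled arp6-10 12 °C replicate 3 and arp6-10 24 h replicate 2 go against their labels, as the values given with the mutant show, and no mutant array entered the Col-0 fit. The 3' to 5' signal ratio of GAPDH, a measure of RNA integrity, was 3.07 and 1.99 at 12 °C and 3.67 and 3.75 after 24 h, so it was higher on both warm arrays, and its part in the results was not tested. Of 10 green shoot, 13 root, 13 seed and 10 flower marker genes, 3 root markers and no others had a probe set of their own in the annotation, so the tissue was checked on those and on the photosynthesis genes below. The summed intensity of the root markers PYK10, NAI2 and EXPA7 was 7708 to 7811 at 12 °C and 11669 to 13973 after 24 h, and none was near the floor. The sum was mostly that of PYK10, with a log2 mean of 12.81 at 12 °C against 9.01 for NAI2 and 6.98 for EXPA7. PYK10 and NAI2, of the endoplasmic reticulum bodies of roots and seedlings, had log2 changes of 0.67 and 1.40, and the root hair expansin EXPA7 of -1.07. The platform annotation pairs 13513 probe sets with a single gene, and 8674 such genes were tested, of which 1131 rose and 1035 fell. Only these are named, and many of them carry no name beyond their locus number.

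Cold-regulated genes held 2 of the 3 largest decreases among named genes. On COR15A, a chloroplast protein that stabilises membranes during freezing, the arrays read 10.57 and 11.14 at 12 °C, 11.87 and 11.19 after 2 h and 6.68 and 6.4 after 24 h. Both arrays at 12 °C and both after 2 h were far above both arrays after 24 h, and the groups at 12 °C and 24 h did not overlap. COR15A was 20.0-fold lower after 24 h than at 12 °C (log2 change -4.32 ± 0.24 SE, adjusted p = 6.63e-08). Its close relative COR15B read 9.84 and 10.35 at 12 °C, 11.18 and 10.94 after 2 h and 6.47 and 6.8 after 24 h. It was 11-fold lower (log2 change -3.46 ± 0.22 SE, adjusted p = 2e-07). The dehydrin LTI30 stood at 9.91 and 10.5 at 12 °C against 7.87 and 7.69 after 24 h and was 5.37-fold lower. In whole seedlings, fewer cells of a type and less RNA per cell cannot be told apart.

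Of the 8 cold response genes tested, 6 fell and 2 rose, beside 12.1% and 13.7% of all probe sets. The median log2 change of the list was -1.81, against -0.01 over all probe sets. The other genes that fell were COR27, a cold-induced regulator of the clock and of freezing tolerance (3.92-fold), STZ, a zinc finger repressor (3.13-fold), and AT4G33980 (2.37-fold). The rising members were dehydrins too. AT1G54410, named HIRD11 in the gene table, read 8.58 and 8.96 at 12 °C against 11.6 and 10.91 after 24 h and rose 5.61-fold (adjusted p = 5.37e-06), and COR47 read 8.88 and 9.08 at 12 °C against 9.92 and 9.31 after 24 h and rose 1.56-fold. The dehydrins thus went both ways, with LTI30 lower and HIRD11 and COR47 higher. With 1 array left out, the calls of COR47 (adjusted p = 0.341 without Col-0 24 h replicate 1) and AT4G33980 (adjusted p = 0.14 without Col-0 12 °C replicate 2) ended.

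At 2 h the cold genes had not fallen as a group, and their median log2 difference from 12 °C was 0.14. COR15A and COR15B had log2 changes of 0.67 and 0.97 at 2 h against 12 °C, of which that of COR15B passed (adjusted p = 0.00771). Between 2 h and 24 h both fell, COR15A by 31.8-fold and COR15B by 21.5-fold (adjusted p = 1.24e-08 and 1.24e-08). LTI30 and COR27 also fell over that interval, by 4.06-fold and 2.3-fold. HIRD11 was already higher at 2 h, with readings of 10.84 and 10.56 (adjusted p = 9.52e-05 against 12 °C). Over all probe sets 888 (5.58%) were higher and 810 (5.09%) lower at 24 h than at 2 h, and 4 of the 8 cold genes were lower and none higher. The total of 1698 became 473 without Col-0 2 h replicate 2, whose GAPDH ratio was 6.78 against 2.58 on replicate 1. It became 674 without Col-0 24 h replicate 1 and 927 without Col-0 2 h replicate 1.

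All 8 tested genes of flavonoid and anthocyanin synthesis fell, beside 12.1% of all probe sets. Dihydroflavonol reductase, DFR, which commits the pathway to anthocyanins, read 10.87 and 10.48 at 12 °C, 6.79 and 7.38 after 2 h and 8.02 and 8.12 after 24 h. Its arrays at 12 °C were above all the others, and those after 24 h lay between the 12 °C and the 2 h values. DFR was 6.08-fold lower after 24 h (log2 change -2.61 ± 0.23 SE, adjusted p = 4.1e-06). AT4G14090, on the same list, read 9.21 and 8.96 at 12 °C, 6.04 and 5.66 after 2 h and 6.44 and 6.81 after 24 h and was 5.5-fold lower (log2 change -2.46 ± 0.25 SE). UF3GT, a glycosyltransferase that extends the sugar chain of anthocyanins, read 9.77 and 9.8 at 12 °C against 7.22 and 7.64 after 24 h and was 5.13-fold lower. The anthocyanin malonyltransferase AT5MAT read 7.92 and 8.07 at 12 °C against 5.66 and 5.78 after 24 h and was 4.85-fold lower.

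The other 4 members fell by less. AT1G06000 fell 2.81-fold, the chalcone isomerase-like protein CHIL, which aids the entry step of the pathway, 2.33-fold, the flavonoid glucosyltransferase UGT78D2 1.83-fold and the flavonol rhamnosyltransferase UGT78D1 1.47-fold. The list's median log2 change was -1.88, and all 8 members were lower on both arrays after 24 h than on both at 12 °C, a separation that 33.1% of all probe sets showed in that direction. The call of UGT78D1 (adjusted p = 0.264 without Col-0 12 °C replicate 2) ended with 1 array left out. In a fit of all 18 arrays none of the 8 passed, and in a fit of 16 arrays without 2 arp6-10 arrays described below all 8 passed.

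Most flavonoid genes were lowest at 2 h and stood higher again at 24 h. The list's median log2 difference from 12 °C was -2.44 at 2 h and its median difference between 24 h and 2 h was 0.93. Of the 8 genes, 6 were called higher at 24 h than at 2 h and none lower, where 5.58% of all probe sets were higher. DFR rose 1.98-fold (adjusted p = 0.0137), CHIL 2.22-fold (adjusted p = 0.00167) and UGT78D1 2.07-fold between these points, while AT5MAT had a log2 difference of -0.32 (adjusted p = 0.502). The 24 h arrays enter both comparisons.

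**Figure D2:**
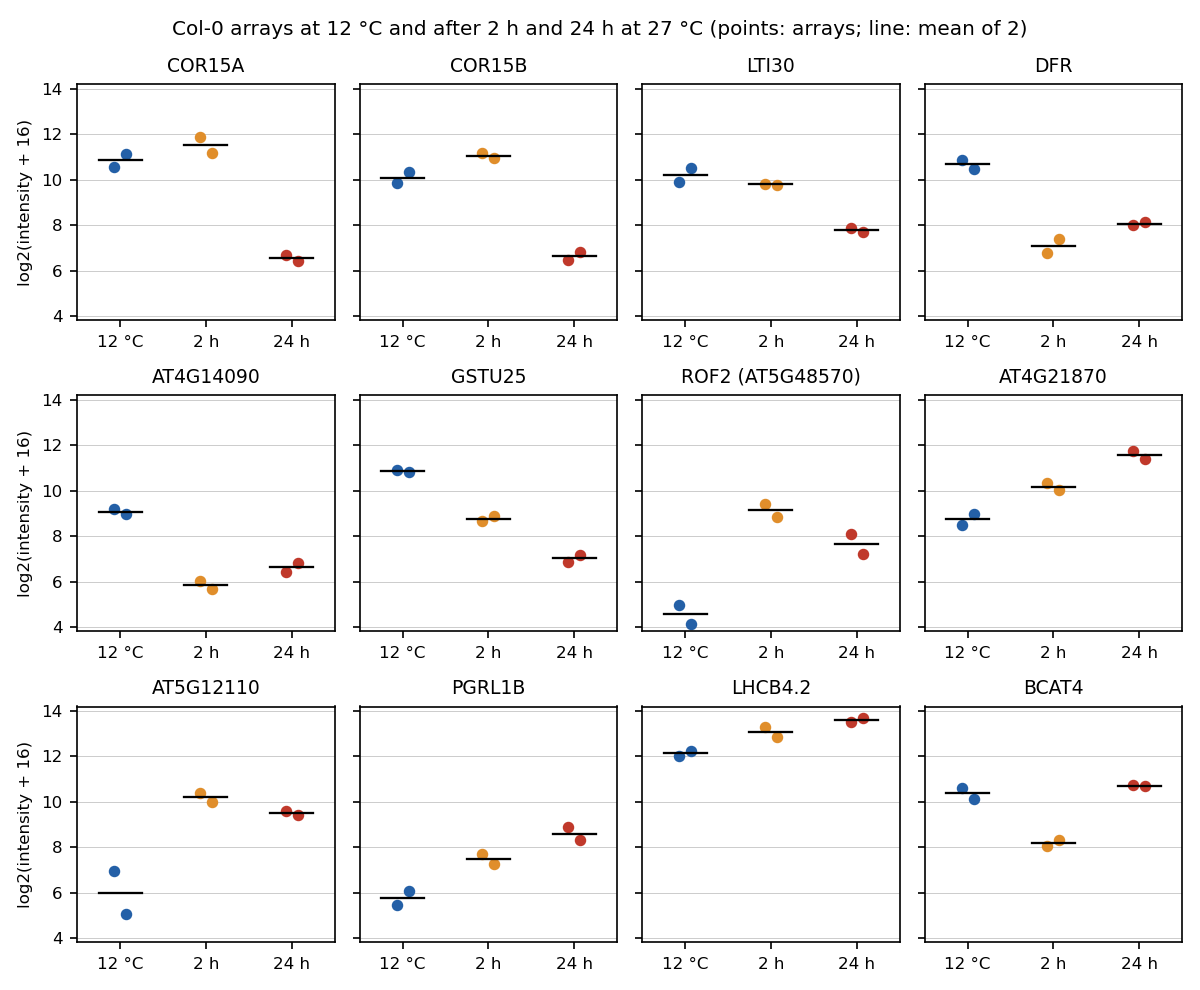
Values of 12 genes on each Col-0 array at 12 °C and after 2 h and 24 h at 27 °C, as log2(intensity + 16) (y axis), with points for arrays and a line for the mean of 2. COR15A, COR15B and LTI30 are high until 2 h and low at 24 h, DFR and AT4G14090 are lowest at 2 h, and AT4G21870, PGRL1B and LHCB4.2 are highest at 24 h.

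Most heat shock genes were higher after 24 h than at 12 °C, and 9 of the 18 tested were lower than at 2 h. ROF2 (AT5G48570), also called FKBP65, a prolyl isomerase that works with HSP90, read 4.95 and 4.15 at 12 °C, 9.43 and 8.84 after 2 h and 8.08 and 7.23 after 24 h. Both arrays at 12 °C lay near the floor of the scale, with a mean of 4.55 that is not shown to be above background, so its fold is a rough value. It was 8.62-fold higher at 24 h than at 12 °C (log2 change 3.11 ± 0.33 SE, adjusted p = 1.66e-05) and 2.78-fold lower than at 2 h (adjusted p = 0.011). The 24 h arrays of AT4G21870, on the same list, stood above those at 2 h. AT4G21870 read 8.51 and 8.97 at 12 °C, 10.35 and 10.02 after 2 h and 11.76 and 11.41 after 24 h and rose 7.2-fold from 12 °C (log2 change 2.85 ± 0.21 SE).

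The HOP proteins, which pass client proteins from HSP70 to HSP90, were all higher at 24 h. Hop1 read 6.74 and 6.36 at 12 °C against 8.2 and 8.1 after 24 h and rose 3.04-fold, Hop2 read 7.84 and 7.24 at 12 °C against 9.27 and 8.59 after 24 h and rose 2.62-fold, and Hop3, dim at 12 °C with a mean of 4.68, rose 4.54-fold. In all, 12 of 18 tested heat shock genes rose (66.7%) and 1 fell, beside 13.7% and 12.1% of all probe sets, with a median log2 change of 1.22. The others that rose were AT2G20560, dim at 12 °C with a mean of 4.41 (4.01-fold), AT2G19310 (3.61-fold), AT5G51440 (2.59-fold), AT1G54050 (2.42-fold), AT5G37670 (2.24-fold), AT1G53540, also dim at 12 °C (2.15-fold) and Hsp70-2, a cytosolic HSP70 (1.59-fold). AT3G09440 fell 1.41-fold (adjusted p = 0.0395). With 1 array left out, the calls of AT5G37670 (adjusted p = 0.149 without Col-0 12 °C replicate 1), AT1G53540 (adjusted p = 0.205 without Col-0 12 °C replicate 2), Hsp70-2 (adjusted p = 0.0965 without Col-0 24 h replicate 2) and AT3G09440 (adjusted p = 0.209 without Col-0 12 °C replicate 1) ended.

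Members of the list that did not pass at 24 h included genes with large values at 2 h. AT2G29500 read 6.6 and 6.37 at 12 °C, 10.1 and 9.72 after 2 h and 7.32 and 6.76 after 24 h, so its 24 h arrays were nearer to those at 12 °C (log2 change 0.56, adjusted p = 0.106) and below those at 2 h (7.31-fold lower, adjusted p = 5.98e-06). HSA32, of the memory of past heat, had a log2 change of 0.55 and Fes1A, a protector of HSP70, of 0.05. Between 2 h and 24 h, 9 of the 18 genes fell and 2 rose, AT4G21870 and Hop1, where 5.09% of all probe sets fell and 5.58% rose.

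The listed genes of protein folding in the endoplasmic reticulum, not all of them chaperones, moved less. Of 10 tested, 2 rose (20.0%) and 1 fell (10.0%), beside 13.7% and 12.1% of all probe sets, with a median log2 change of 0.08. ATERDJ3B, a J-domain partner of the luminal HSP70 BiP, read 7.89 and 7.84 at 12 °C against 10.17 and 9.71 after 24 h and rose 4.21-fold (adjusted p = 1.17e-05). ATERDJ2A, of the translocation channel, rose 2.33-fold, and BZIP60, a transcription factor of the unfolded protein response, fell 1.6-fold. The calls of ATERDJ2A (adjusted p = 0.0691 without Col-0 12 °C replicate 1) and BZIP60 (adjusted p = 0.3 without Col-0 24 h replicate 1) ended with 1 array left out. The calreticulin CRT1b had a log2 change of 0.12.

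The listed photosynthesis genes of the nucleus that could be tested rose as a group by small steps. PGRL1B, of the cyclic electron flow around photosystem I, changed most and read 5.46 and 6.08 at 12 °C, 7.69 and 7.26 after 2 h and 8.88 and 8.3 after 24 h. Both arrays after 24 h were above all the others. It rose 7.06-fold (log2 change 2.82 ± 0.28 SE, adjusted p = 9.87e-06) and was 2.17-fold higher at 24 h than at 2 h. The 3 tested genes of CP29, a minor antenna protein of photosystem II, all rose. LHCB4.2 read 12.03 and 12.24 at 12 °C against 13.54 and 13.71 after 24 h and rose 2.8-fold, LHCB4.3 read 9.48 and 9.74 at 12 °C against 10.81 and 11.41 after 24 h and rose 2.82-fold, and LHCB4.1 read 13.18 and 13.38 at 12 °C against 14.01 and 14.01 after 24 h and rose 1.66-fold.

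Of 67 listed genes of the light reactions only 12 had a probe set of their own, so most were not seen. Of these 12 tested genes, 11 rose (91.7%) and none fell, beside 13.7% and 12.1% of all probe sets, with a median log2 change of 0.71. The others were the photosystem I subunits PSAE-1 (1.67-fold) and PSAN (1.56-fold), the photosystem II proteins PSB27 (1.43-fold) and PSBW (1.35-fold), the ATP synthase subunit ATPC1 (1.6-fold), and NdhN (2.11-fold) and NdhL (1.44-fold) of the chloroplast NADH dehydrogenase-like complex. PSBY had a log2 change of 0.31 (adjusted p = 0.0981). With the values as deposited the median was 0.52, beside 0.14 over all probe sets, and 6 passed. In the fit of all 18 arrays 3 passed. The count was 6 without Col-0 24 h replicate 1 and 7 without Col-0 12 °C replicate 1, and the calls that ended with some array left out were those of PSB27 (adjusted p = 0.23 without Col-0 24 h replicate 1), PSBW (adjusted p = 0.133 without Col-0 12 °C replicate 1), PSAN (adjusted p = 0.211 without Col-0 12 °C replicate 1), NdhL (adjusted p = 0.281 without Col-0 12 °C replicate 1) and NdhN (adjusted p = 0.0724 without Col-0 24 h replicate 1).

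In the Calvin cycle, which fixes carbon, 3 of 4 tested genes rose, beside 13.7% of all probe sets. Phosphoribulokinase, PRK, which makes the acceptor of carbon dioxide, read 11.89 and 12.04 at 12 °C, 12.55 and 12.19 after 2 h and 13.26 and 12.94 after 24 h and rose 2.2-fold (adjusted p = 0.000242). AT1G56190 rose 2.06-fold and the sedoheptulose bisphosphatase SBPASE 1.92-fold. Rubisco activase, RCA, read 13.53 and 13.71 at 12 °C against 13.95 and 14.0 after 24 h with a log2 change of 0.36 (adjusted p = 0.0587). Most chlorophyll synthesis genes were not called, with 2 of 8 higher and 1 lower, beside 13.7% and 12.1% of all probe sets. PORB, a light-dependent protochlorophyllide reductase, read 9.93 and 9.56 at 12 °C against 11.14 and 11.14 after 24 h and rose 2.62-fold, HEME1 rose 1.56-fold and GSA1, of an early step of the pathway, fell 1.57-fold. The calls of HEME1 (adjusted p = 0.185 without Col-0 12 °C replicate 1) and GSA1 (adjusted p = 0.0704 without Col-0 24 h replicate 2) ended with 1 array left out.

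The list of nuclear genes of plastid translation, protein folding and proteolysis had 6 of 15 members higher (40.0%) and 1 lower, beside 13.7% and 12.1% of all probe sets. AT5G24490 read 8.91 and 9.9 at 12 °C against 12.09 and 11.28 after 24 h and rose 4.87-fold (adjusted p = 0.000113). Cpn60beta4 and Cpn60beta3, beta subunits of the plastid chaperonin, rose 2.64-fold and 2.0-fold. The 1 lower member, NCLPP7, fell 1.97-fold and is a CLP protease subunit found in mitochondria, so no plastid member of the list was called lower. The call of Cpn60beta3 (adjusted p = 0.0791 without Col-0 24 h replicate 1) ended with 1 array left out, and the list had 3 higher members without Col-0 24 h replicate 1. With the values as deposited the list's median was 0.04, under the 0.14 of all probe sets, against 0.36 after quantile normalization, and 5 members rose.

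Transcripts of the plastid genome itself did not move as a block. Of 69 tested, 7 were higher (10.1%) and 11 lower (15.9%), shares near those of all probe sets, with a median log2 change of -0.16. The large subunit of Rubisco, rbcL, read 12.7 and 12.64 at 12 °C, 11.96 and 12.47 after 2 h and 10.87 and 11.01 after 24 h and fell 3.32-fold (log2 change -1.73 ± 0.17 SE, adjusted p = 1.06e-05). The ribosomal protein genes rpl22 and rps3 read 9.51 and 9.6 at 12 °C against 11.34 and 11.82 after 24 h and 11.59 and 11.43 at 12 °C against 12.83 and 12.89 after 24 h, and rose 4.08-fold and 2.55-fold, while rps16 fell 2.44-fold. Between 2 h and 24 h, 14 of the 69 fell and none rose, where 5.09% of all probe sets fell. Without Col-0 24 h replicate 1 there were 3 lower members, and the call of rps16 (adjusted p = 0.0622 without Col-0 24 h replicate 1) ended. Without Col-0 12 °C replicate 2 there were 6 lower and 3 higher, and without Col-0 24 h replicate 2 there were 3 higher. Over all 18 arrays 3 were lower and 2 higher, and over 16 arrays 5 and 4.

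Genes of the cytosolic ribosome fell together by small amounts. Of 104 tested, 59 fell (56.7%) and 1 rose, beside 12.1% and 13.7% of all probe sets, and 94 had a log2 change below 0. The median was -0.46, and the fallen members ranged from -1.39 to -0.39. AT2G40010 read 9.73 and 9.52 at 12 °C against 8.18 and 8.29 after 24 h and fell 2.62-fold (log2 change -1.39 ± 0.19 SE, adjusted p = 0.000125). AT1G07070 read 11.36 and 11.06 at 12 °C, 9.99 and 10.03 after 2 h and 9.98 and 10.09 after 24 h and fell 2.26-fold, and AT2G21580 fell 2.07-fold. AT4G02230 went the other way, read 9.63 and 10.08 at 12 °C against 11.09 and 10.73 after 24 h and rose 2.08-fold (adjusted p = 0.00274).

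The median of the ribosomal list was below 0 under each scaling tried, at -0.83 with the values as deposited and -0.49 with the Col-0 arrays normalized alone, where all probe sets had medians of 0.14 and -0.01. The count of fallen members did depend on the fit. It was 80 with the values as deposited, 12 over all 18 arrays and 60 over 16. It was 25 when Col-0 12 °C replicate 1 was left out and 23 when Col-0 24 h replicate 1 was. The list's median was already -0.36 at 2 h against 12 °C, and the median difference between 24 h and 2 h was -0.04. Members of these families resemble each other in sequence, and probe sets may read more than 1 of them.

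Ribosome biogenesis, the nucleolar work that precedes assembly, followed another course. Of 24 tested genes 5 rose and 5 fell against 12 °C (20.8% each way, beside 13.7% and 12.1% of all probe sets), with a median log2 change of -0.07. AT3G05060 read 7.68 and 7.25 at 12 °C, 7.49 and 7.29 after 2 h and 8.89 and 8.53 after 24 h and rose 2.37-fold (adjusted p = 0.00139), and AT2G18220, AT4G26600 (mean of 4.88 at 12 °C) and AT2G40430 rose 2.76-fold, 2.26-fold and 1.87-fold. The 5 that fell had log2 changes from -0.90 to -0.66. The list's median was -0.71 at 2 h. Between 2 h and 24 h 8 of the 24 rose and none fell, where 5.58% of all probe sets rose and 5.09% fell. With 1 array left out the calls against 12 °C of AT2G18220 (adjusted p = 0.191 without Col-0 24 h replicate 1), AT4G26600 (adjusted p = 0.181 without Col-0 24 h replicate 1) and AT2G40430 (adjusted p = 0.156 without Col-0 24 h replicate 1) ended, and the fallen members numbered 0 without Col-0 12 °C replicate 1.

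**Figure D3:**
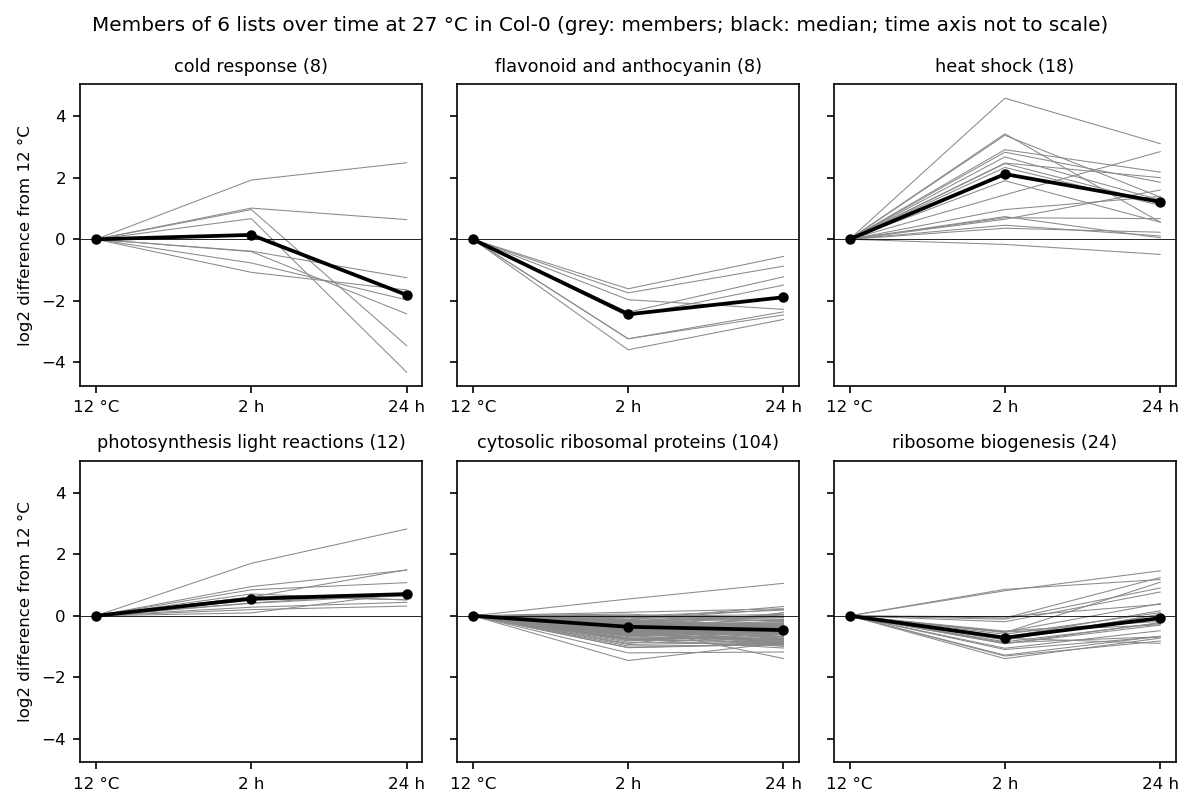
Log2 difference from the 12 °C mean (y axis) at 2 h and 24 h at 27 °C for the tested members of 6 lists in Col-0, with a grey line for each member and a black line for the median, and a time axis that is not to scale. Cold response medians drop between 2 h and 24 h to -1.81, flavonoid medians are lowest at 2 h (-2.44), heat shock medians peak at 2 h (2.12) and are 1.22 at 24 h, and ribosomal protein medians are -0.36 and -0.46.

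Redox genes changed in both directions. GSTU25, a tau class glutathione transferase, had the second largest decrease among named genes, and its arrays read 10.93 and 10.83 at 12 °C, 8.65 and 8.9 after 2 h and 6.87 and 7.18 after 24 h. Each later group was below the one before without overlap. It was 14.5-fold lower at 24 h (log2 change -3.85 ± 0.20 SE, adjusted p = 4.53e-08). GSTU22 read 10.23 and 10.07 at 12 °C, 8.76 and 8.84 after 2 h and 7.6 and 7.73 after 24 h and was 5.61-fold lower. ATGSTF13, of the phi class and dim at 12 °C with a mean of 4.99, and GSTL3, of the lambda class, rose 3.98-fold and 2.74-fold. Of 11 tested transferases 4 rose (36.4%) and 3 fell (27.3%), beside 13.7% and 12.1% of all probe sets.

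The ascorbate peroxidases of the chloroplast, which remove hydrogen peroxide, went opposite ways. SAPX, the stromal form, read 10.45 and 10.67 at 12 °C, 10.06 and 10.25 after 2 h and 8.38 and 8.44 after 24 h and fell 4.45-fold (adjusted p = 2.76e-06). TAPX, bound to the thylakoids, read 8.37 and 8.78 at 12 °C, 9.48 and 9.06 after 2 h and 10.3 and 10.03 after 24 h and rose 3.0-fold (adjusted p = 0.000121). VTC4, of ascorbate synthesis, rose 2.06-fold and the glutathione reductase GR1 fell 1.8-fold. Of 8 scavenging genes tested 3 rose and 2 fell. The glutaredoxin GRXC2 had a log2 change of -0.36.

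Among growth and hormone genes, the auxin list had 1 gene higher (12.5%) and 1 lower (12.5%), near the 13.7% and 12.1% of all probe sets. All 3 gibberellin receptors tested were lower. Of the 8 auxin genes, HAT2, an auxin-induced homeobox gene, rose 1.64-fold and GH3.17, which conjugates auxin to amino acids, fell 1.61-fold, and the calls of both ended with 1 array left out, those of HAT2 (adjusted p = 0.133 without Col-0 24 h replicate 1) and GH3.17 (adjusted p = 0.317 without Col-0 24 h replicate 1). The auxin synthesis gene YUC2 had a log2 change of -0.01, GH3.3 of 0.39, IAA18 of 0.40 and WES1 of -0.29. The remaining auxin genes, IAA30 and YUC4, had 0.29 and -0.25. The gibberellin receptors GID1A, GID1B and GID1C all fell, by 1.66, 2.53 and 1.91-fold. GID1B read 7.42 and 7.89 at 12 °C against 6.11 and 6.53 after 24 h and kept its call with each array left out, whereas those of GID1A (adjusted p = 0.108 without Col-0 24 h replicate 2) and GID1C (adjusted p = 0.128 without Col-0 24 h replicate 1) ended. With the values as deposited 1 of the 3 was called lower, with a list median of -0.67 against -0.93, and over all 18 arrays 1 was.

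Among 20 tested genes of cell wall expansion 2 rose and 5 fell. XTH20, a xyloglucan endotransglucosylase, read 8.37 and 8.29 at 12 °C, 6.04 and 6.47 after 2 h and 6.44 and 6.03 after 24 h and fell 4.27-fold (adjusted p = 5.55e-05). XTH32 fell 2.83-fold and the expansin EXPA16 3.36-fold. The expansin-like gene EXLA1 read 6.2 and 6.65 at 12 °C, 9.41 and 9.03 after 2 h and 8.48 and 8.37 after 24 h and rose 4.01-fold (adjusted p = 2.95e-05). The call of EXPA16 (adjusted p = 0.168 without Col-0 24 h replicate 1) ended with 1 array left out, and the number of fallen members was 2 without Col-0 12 °C replicate 1. EXGT-A3 had a log2 change of -0.30.

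Cell division genes were mostly not called, with 3 of 16 higher and 1 lower, or 6 higher and none lower with the values as deposited. The histones HTB2 and HTB4, both of type H2B, read 8.57 and 8.58 at 12 °C against 9.59 and 9.4 after 24 h and 10.86 and 11.05 at 12 °C against 11.54 and 11.75 after 24 h and rose 1.9-fold and 1.61-fold. POLD3, a subunit of a replicative polymerase, rose 4.04-fold from a mean of 4.38 at 12 °C that is not shown to be above background, and AT5G02570 fell 2.07-fold. With 1 array left out the calls of HTB4 (adjusted p = 0.0687 without Col-0 12 °C replicate 1), POLD3 (adjusted p = 0.0682 without Col-0 24 h replicate 1) and AT5G02570 (adjusted p = 0.165 without Col-0 24 h replicate 1) ended. HTB1 had a log2 change of -0.30.

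Defence and secondary metabolism gave single large values rather than groups. AT5G03350, on the salicylic acid list, read 10.2 and 9.9 at 12 °C, 9.49 and 9.42 after 2 h and 6.98 and 7.1 after 24 h and was 8.06-fold lower at 24 h (log2 change -3.01 ± 0.20 SE, adjusted p = 2.64e-07), the fifth largest decrease among named genes. The other 3 tested genes of that list, GRX480, WRKY53 and SAG101, had log2 changes of -0.36, 0.31 and 0.21. Among 8 genes of defensins and the jasmonate response, PDF2.1 read 9.57 and 9.2 at 12 °C against 7.39 and 7.08 after 24 h and fell 4.43-fold, PDF1.2 fell 2.92-fold and PDF2.5 rose 1.49-fold. The call of PDF2.5 (adjusted p = 0.202 without Col-0 24 h replicate 2) ended with 1 array left out.

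In glucosinolate synthesis, UGT74B1, which adds the sugar, rose 2.51-fold and AOP1 1.9-fold. GSTU20 fell 1.54-fold. BCAT4, which starts the side chain from methionine, read 10.62 and 10.13 at 12 °C, 8.06 and 8.33 after 2 h and 10.74 and 10.68 after 24 h. Its 24 h arrays were back at the 12 °C level (log2 change 0.33, adjusted p = 0.24) after low values at 2 h, and it was 5.71-fold higher at 24 h than at 2 h (adjusted p = 3.87e-06). The calls of AOP1 (adjusted p = 0.144 without Col-0 24 h replicate 1) and GSTU20 (adjusted p = 0.23 without Col-0 24 h replicate 1) ended with 1 array left out.

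Other lists had few measured members. The clock gene GI, the only tested member of the clock list, read 9.02 and 9.01 at 12 °C against 8.57 and 8.45 after 24 h. Its log2 change was -0.50 (adjusted p = 0.0645). COR27, described above as a regulator of the clock, was on the cold list. Of 4 flowering time genes, the 3' end processing factor FY fell 1.92-fold and SMZ, an AP2-like repressor of flowering, 1.8-fold, and the calls of FY (adjusted p = 0.105 without Col-0 24 h replicate 1) and SMZ (adjusted p = 0.0587 without Col-0 12 °C replicate 2) ended with 1 array left out. Of 7 starch and sugar genes, the plastid disproportionating enzyme DPE1 rose 2.27-fold. Neither abscisic acid gene passed, with LEA18 at 1.07 and LEA4-5 at -0.63. SWC2, a subunit of the SWR1 complex, was dim at 12 °C, read 4.3 and 4.46 at 12 °C against 6.0 and 5.52 after 24 h and had a log2 change of 1.38 (adjusted p = 0.0511). The remodelling ATPases CHR23, dim at 12 °C, and INO80, of other complexes, rose 3.34-fold and 1.76-fold, and the calls of CHR23 (adjusted p = 0.27 without Col-0 24 h replicate 1) and INO80 (adjusted p = 0.142 without Col-0 24 h replicate 1) ended with 1 array left out.

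**Figure D4:**
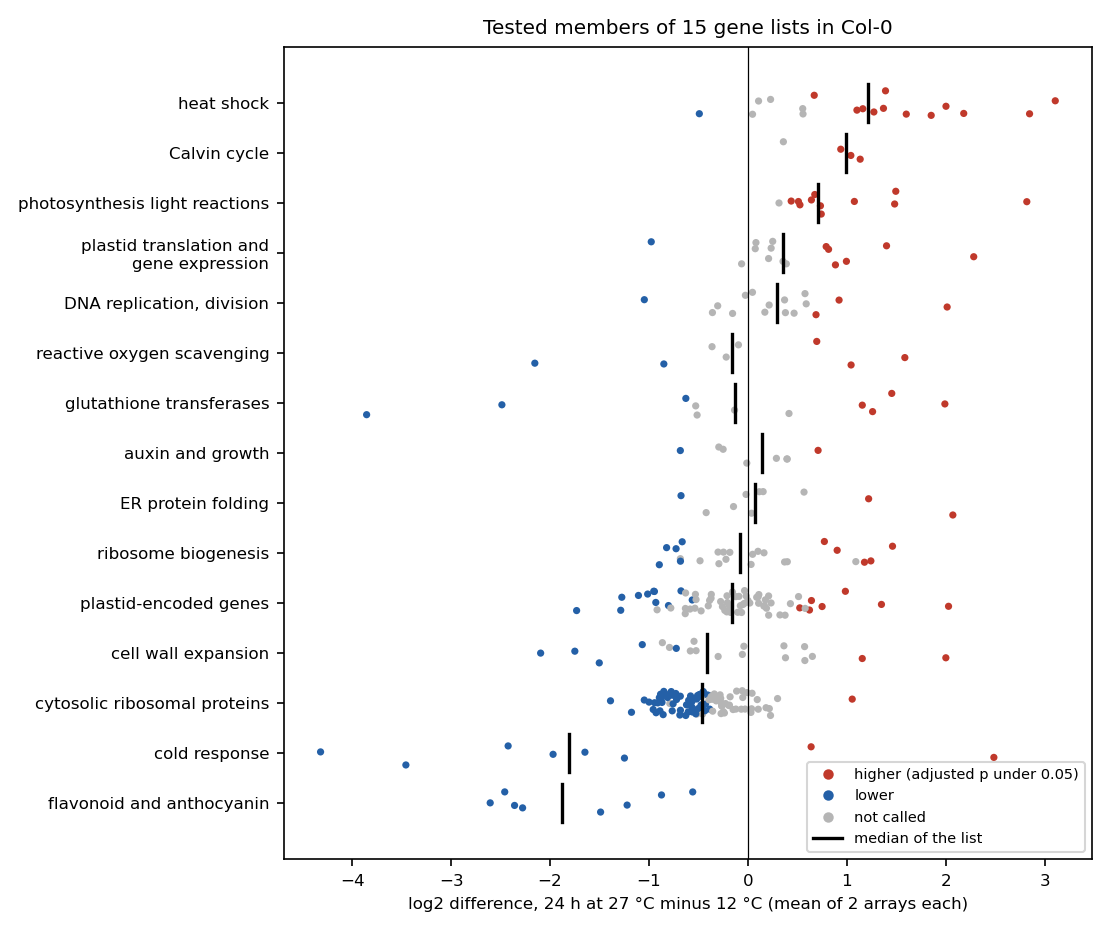
Log2 difference between 24 h at 27 °C and 12 °C (x axis) for the tested members of 15 gene lists in Col-0, each point 1 gene, in red or blue where called higher or lower and grey where not called, with a black bar at the median of the list. All 8 flavonoid genes lie to the left of 0, all 12 genes of the light reactions to the right, and 94 of 104 ribosomal protein genes to the left.

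The 15 largest increases and 15 largest decreases among named genes were taken from called genes whose groups did not overlap and whose higher group had a mean of at least 7. No call among these 30 ended with any 1 array left out. Their choice as called genes with large changes on these same arrays favours this. Of the 15 largest increases over all probe sets 6 belong to a named gene, and of the 15 largest decreases 5. AT5G12110 led the increases and read 6.94 and 5.03 at 12 °C, 10.4 and 10.0 after 2 h and 9.59 and 9.4 after 24 h. Its 12 °C arrays lay apart from each other, so the fold of 11.4 (log2 change 3.51 ± 0.41 SE, adjusted p = 3.47e-05) moved to a log2 change of 2.56 or 4.46 without one or the other, with adjusted p up to 0.00158.

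AT3G24100 was next, read 6.66 and 6.36 at 12 °C, 7.91 and 7.41 after 2 h and 10.2 and 9.53 after 24 h and was 10.2-fold higher (log2 change 3.36 ± 0.26 SE, adjusted p = 1.23e-06). It rose in steps, with the 24 h arrays above all the others. AT3G28270 and AT5G16030 were 8.9-fold and 8.64-fold higher. AT1G13650 read 5.23 and 5.85 at 12 °C, 5.36 and 5.69 after 2 h and 8.68 and 8.31 after 24 h, so its increase of 7.76-fold came after 2 h (adjusted p = 3.23e-05 for 24 h against 2 h). AT4G23670 and AT1G51400 were bright and read 10.21 and 10.3 at 12 °C against 13.08 and 12.94 after 24 h and 10.44 and 10.65 at 12 °C against 13.31 and 13.04 after 24 h, with increases of 6.74-fold and 6.18-fold. The rest of the increases, AT3G02480 (7.05-fold), AT1G14120 (6.83-fold), AT2G46250 (8.04-fold), AT5G51840 (6.35-fold) and AT5G66740 (6.14-fold), had values of at most 8.65 at 24 h, and the last 3 had means under 5 at 12 °C. Of the 15 increases 11 were higher at 24 h than at 2 h, where 5.58% of all probe sets were, and ROF2 alone was lower. The 15 were picked by the same 24 h arrays, which favours such a count.

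Among the decreases without a list, AT4G12490 and the nearby AT4G12500 read 10.53 and 9.79 at 12 °C against 7.01 and 7.06 after 24 h and 8.53 and 8.13 at 12 °C against 5.7 and 5.89 after 24 h and fell 8.74-fold and 5.8-fold. AT4G38080 fell 6.75-fold (log2 change -2.75 ± 0.21 SE), AT2G04050 6.14-fold, AT3G44430 5.78-fold and AT3G18250 5.64-fold. AT2G36885 read 11.19 and 10.96 at 12 °C, 11.45 and 11.16 after 2 h and 8.38 and 8.58 after 24 h, so its fall of 6.05-fold came between 2 h and 24 h (adjusted p = 3.89e-07). AT5G62210 read 10.52 and 10.37 at 12 °C, 7.48 and 8.05 after 2 h and 7.75 and 8.18 after 24 h and had reached its low level by 2 h, with a fall of 5.56-fold at 24 h. Of the 15 decreases 11 were lower at 24 h than at 2 h, where 5.09% of all probe sets were, and DFR was higher. These 15 too were picked by the same 24 h arrays, which favours such a count.

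The arp6-10 arrays allow these changes to be set beside those of other samples. All arp6-10 arrays of these times were placed on a scale, computed from the tested probe sets, with 0 at the mean of the remaining 12 °C arrays and 1 at that of the remaining 24 h arrays. The array labelled arp6-10 12 °C replicate 3 lay at 0.96 and the array labelled arp6-10 24 h replicate 2 at -0.04. The 3 other arrays of each group, each placed on the scale made without it, lay between 0.08 and 0.14 and between 0.88 and 0.93. Both arrays go against their labels in these values, so each arp6-10 value below is given with all 8 arrays of those groups and with the 6 left without them, as a description with no test. COR15A had an arp6-10 difference of -1.75 with all arrays and -3.64 without these 2. DFR had -2.18 and -4.6, AT4G21870 1.49 and 3.23, and PGRL1B 0.91 and 2.17.

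With all 8 arp6-10 arrays, 14 of the 15 largest Col-0 increases had a difference above 0 and 15 of the 15 decreases one below 0, and without the 2 arrays all 30 had the sign seen in Col-0. Over all probe sets called higher in Col-0, 68.8% had an arp6-10 difference above 0 with all arrays and 77.2% without the 2, beside 48.8% and 49.3% of all tested probe sets. For probe sets called lower in Col-0, 77.7% and 83.6% had one below 0, beside 51.2% and 50.6%. The smallest values belonged to AT5G51840, with -0.07 and 0.20 in arp6-10 against 2.67 in Col-0. AT1G54410 (HIRD11) had -0.47 and -0.55 in arp6-10, against 2.49 in Col-0. Whether any of these differ between the genotypes was not tested here.

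By list and without the 2 arrays, all 8 flavonoid genes and 102 of 104 ribosomal protein genes had an arp6-10 difference below 0, and all 12 genes of the light reactions one above 0. The medians with all arrays and without the 2 were -1.30 and -2.81 for the flavonoid genes, -0.33 and -0.57 for the ribosomal protein genes and 0.37 and 0.87 for the light reactions. All 8 cold genes were below 0, HIRD11 and COR47 included. All 24 ribosome biogenesis genes were below 0 as well, with a median of -0.80 (-0.43 with all arrays), where 12 of the 24 were below 0 in Col-0. Plastid-encoded genes were above 0 for 52 of 69 in arp6-10, where 25 of 69 were in Col-0, and their arp6-10 medians were 0.50 and, with all arrays, 0.23.

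**Figure D5:**
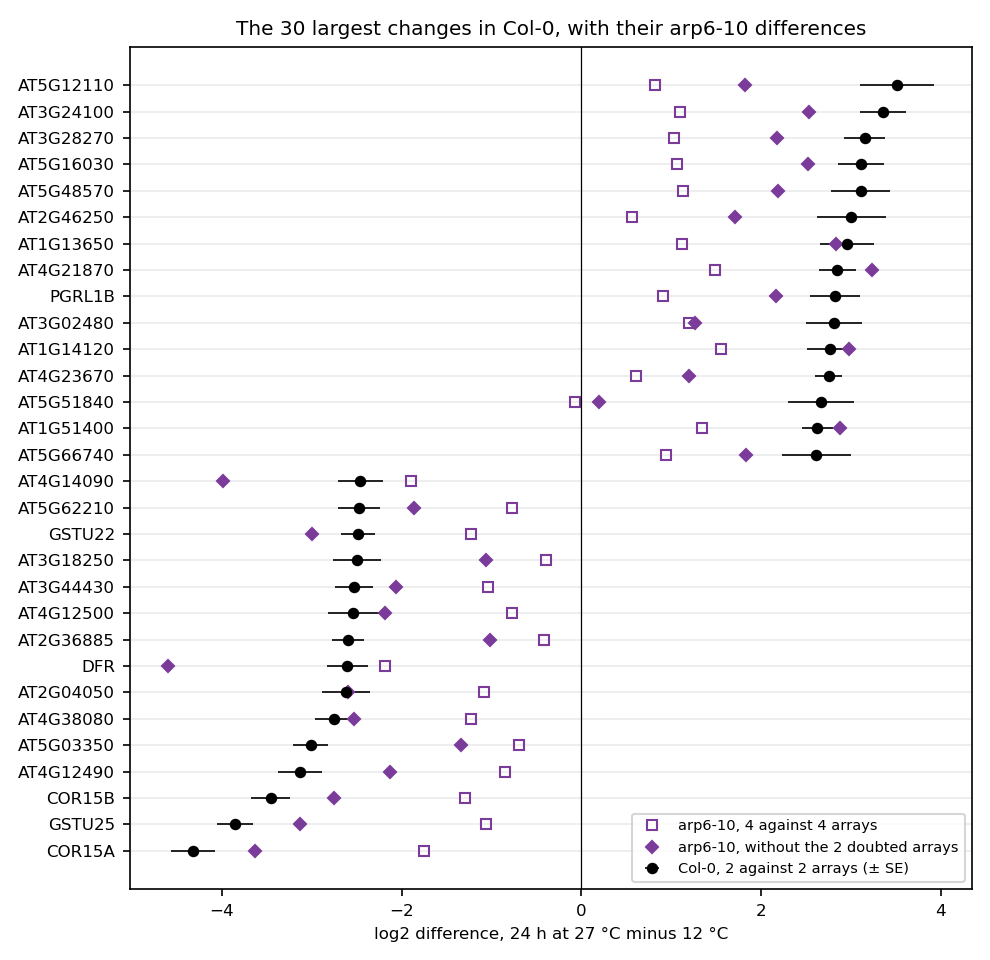
Log2 difference between 24 h at 27 °C and 12 °C (x axis) of the 30 largest Col-0 changes, with black points for Col-0 (2 against 2 arrays, bars are SE of the limma fit), open squares for arp6-10 (4 against 4 arrays) and filled diamonds for arp6-10 without the 2 arrays that go against their labels. All 30 diamonds lie on the same side of 0 as the black points, and AT5G51840 lies nearest to 0 in arp6-10.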

How the data were processed

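RNA of whole seedlings was labelled and hybridised to 1-colour Affymetrix arrays, per the labels' protocols. The table deposited by the authors holds 1 linear intensity per probe set and array, and per the submitters' processing notes GCOS was used (version and algorithm not given in the sources used here). Of 22810 probe sets, 64 controls were left out. The deposited intensities were turned into log2(intensity + 16), quantile normalized over 18 arrays and filtered at the 30th percentile of the mean, which left 15922. The 6 Col-0 arrays were fitted with limma 3.58.1 (R 4.3.3; lmFit, eBayes with a trend), with 3 residual degrees of freedom and a prior of 11.57, and p-values were adjusted by Benjamini-Hochberg over all probe sets tested. The mutant arrays were left out of the fit because 2 of them go against their labels. The small number of arrays limits the precision.

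In the platform annotation 13513 probe sets stand for a single gene, 503 for more than 1, and 8730 have none listed. Of the 13513, 13436 matched RefSeq, which gave the symbols. The members and lists were chosen with earlier results of these data known, and locus numbers were assigned to lists by hand. The names CCR2 and PGM were dropped from the lists after values were seen, since they matched other genes, neither of them called. Named genes are the 15 largest changes each way (called, groups not overlapping, higher group's mean at least 7), up to 4 called and 2 other members of each list, and all tested members of 8 lists. No listed gene of fatty acid desaturation was tested. Replicate numbers did not pair the arrays, with correlations of same-numbered deviations of -0.10 to 0.07. Alternatives were the arrays in the fit, the normalization, the pseudocount, the filter, the trend, a replicate block and each array left out.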

Additional observations from a re-analysis of the deposited data

Results flagged for a closer look

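The 30 genes with the largest changes were searched in the arp6-10 groups at 12 °C and after 24 h for a single array far from the other 3. This gave 60 groups of 4 arrays, of which chance alone flags about 1 in 20. The arp6-10 arrays at 2 h were not searched. All 20 values found lay on 2 arrays, those labelled arp6-10 24 h replicate 2 and arp6-10 12 °C replicate 3. On the first, genes that were higher in the warm had low values: AT5G12110 read 7.63 where the others read 9.70 to 9.84, AT3G24100 read 5.69 where they read 8.64 to 9.02, and AT4G21870 read 8.18 where they read 11.49 to 11.76. The same array read 5.75 for AT3G28270, 7.34 for AT5G16030, 5.51 for AT2G46250, 4.63 for AT1G13650, 6.11 for PGRL1B, 5.22 for AT1G14120 and 9.82 for AT1G51400. It was high for genes that were lower in the warm, at 11.55 for COR15A (7.97 to 8.26 on the others), 11.33 for COR15B and 10.64 for AT4G14090.

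On arp6-10 12 °C replicate 3, genes that were high in the cool had low values. COR15A read 7.65 where the other 3 read 11.67 to 11.91, DFR read 6.79 where they read 11.65 to 11.84, and GSTU25 read 7.47 where they read 11.74 to 12.43. The array read 8.45 for AT5G03350, 6.96 for AT4G38080, 5.47 for AT2G04050 and 7.0 for GSTU22. Neither array entered the Col-0 fit.

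COR15B stood out for opposite changes from 12 °C at the 2 collection times in Col-0, called higher at 2 h (0.97 on the log2 scale) and lower at 24 h (-3.46). The test of the difference gave a log2 value of -4.42 for 24 h against 2 h (limma, adjusted p = 1.24e-08).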

How the results depend on the processing

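For 24 h against 12 °C, the total ranged from 2021 (without Col-0 24 h replicate 1) to 3891 with each array left out, with 1098 to 2097 higher and 923 to 1794 lower. Over all 18 arrays 1653 were higher and 1128 lower, over 16 arrays 2691 and 2275, and over the 4 arrays compared alone 2109 and 1802. For 24 h against 2 h, the total ranged from 473 to 1808 with each array left out, with 244 to 968 higher and 229 to 841 lower. It was 744 over all 18 arrays (437 higher, 307 lower) and 2217 over 16 arrays (1228 and 989). Without the filter it was 940 (492 and 448) and without the trend 686 (370 and 316). As deposited 1427 were higher and 788 lower. The cause was not tested. A replicate block gave 2212 higher and 1966 lower against 12 °C and 956 and 892 against 2 h, and the correlations of same-numbered arrays (-0.10, 0.05 and 0.07) do not show that the numbers pair the arrays.

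Of the 118 called genes named in the report, 44 calls ended over all 18 arrays, 4 over 16 arrays and 36 with some array left out. Of the 30 largest changes, 8 calls ended over all 18 arrays and none over 16. Genes chosen as called with large changes are likely to keep their calls. None of the 118 changed sign under any alternative tried. Only another normalization, another pseudocount or leaving out 1 of the 4 compared arrays could change a sign. The other alternatives leave the log2 change as it was. Genes with a mean under 5 at 12 °C are not shown to be above background, so their folds are rough.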

Other observations

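Gene families that share a symbol were looked through after the values were seen, so their counts are descriptions with no test, beside 13.7% of probe sets higher and 12.1% lower. Genes of the cytoskeleton were among those that rose. Of 7 tubulins 4 rose and 1 fell, with TUB1, a beta tubulin, at a log2 change of 1.41 and TUA1, an alpha tubulin, at -0.66. Of 7 NET proteins, which bind actin, 4 rose, among them NET1A (2.21, from a mean of 4.62 at 12 °C) and NET4B (2.09). Of 11 IQD proteins, calmodulin-binding proteins many of which sit on microtubules, 4 rose, and of 9 TRM proteins of the cortical microtubule array 3 rose. With arrays left out in turn the lowest counts higher were 2 tubulins, 1 NET, 2 IQD and 1 TRM.

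Other families were looked through in the same way. Of 6 SWEET sugar transporters 3 fell, SWEET1 by 1.34, SWEET2 by 1.41 and SWEET13 by 1.24 on the log2 scale. Of 17 serine carboxypeptidase-like proteins 5 fell and none rose, and of 35 UDP-glycosyltransferases 9 fell and 1 rose. Of 11 beta-glucosidases 4 rose, among them BGLU28 (2.36) and BGLU44 (1.85). With arrays left out in turn the lowest counts were 2 SWEET, 2 serine carboxypeptidase-like and 3 UDP-glycosyltransferase genes lower, and 3 beta-glucosidases higher.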
